A study of Mus musculus with 6 samples.

Results

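The 7 genes Ppp1r1b, Adora2a, Pde10a, Rasd2, Rarb, Gng7 and Syndig1l are markers of the striatum, the large forebrain nucleus beneath the frontal cortex. They were taken by symbol, as genes whose levels bear on how much striatal RNA each prefrontal cortex library held, and are 7 of the 54429 rows of each count table. All 7 were found and all 7 passed the filter on low counts. Bulk RNA came from the prefrontal cortex of mice aged 6 to 8 weeks. The labels give C57BL6/J as genotype, while the design text gives a cross of C57BL/6 with C3H. All mice had received AAV9, a gene delivery virus that infects neurons. In 3 libraries (GFP) it carried green fluorescent protein, and in 3 (Kmt5b shRNA) a short hairpin RNA against Kmt5b, a histone methyltransferase. The promoter that drives either insert is not given in the sources used here, and infected and uninfected cells were profiled together as total lysate. The design text counts 2 GFP mice where the labels give 3 GFP libraries, so p-values measure the spread between libraries, which may be partly technical.

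Most striatal neurons are inhibitory spiny projection neurons. Those of the direct pathway carry the dopamine receptor Drd1 and those of the indirect pathway carry the dopamine receptor Drd2 together with the adenosine receptor Adora2a. Both receptor systems act on a cAMP cascade. Gng7 is a gamma subunit of the G protein that couples Drd1 and Adora2a to adenylyl cyclase. Pde10a is the phosphodiesterase that degrades cyclic nucleotides in these neurons. Ppp1r1b encodes DARPP-32, an inhibitor of protein phosphatase 1 when phosphorylated by protein kinase A. Rasd2 encodes Rhes, a small GTPase of striatal neurons, Rarb is a retinoic acid receptor, and Syndig1l is a membrane protein enriched in the caudate and putamen. Some are also made in cortex: Ppp1r1b, for example, by layer 6 neurons.

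Total counts ranged from 29490771 to 74723284 per library, lowest in GFP replicate 2. The cortical label was met by Slc17a7, the vesicular glutamate transporter of cortical excitatory neurons, at 859 to 1109 CPM (counts scaled to library size), and by Tbr1 at 63.9 to 83.0 CPM. Kmt5b itself had 82.4 ± 3.59 CPM under GFP and 70.9 ± 8.42 CPM under Kmt5b shRNA (SD, n = 3 each), for a log2 fold change of -0.22 ± 0.10 (SE, edgeR adjusted p = 0.303), and the ranges overlapped. Directions below therefore rest on the labels. Over all genes 8.46% of 24419 passed an edgeR adjusted p under 0.05, with 2.77% higher and 5.69% lower in the Kmt5b shRNA libraries. Reads of genes that have near-identical copies can be split between rows. Among the 11936 protein-coding genes sharing no sequence with another coding gene or a pseudogene, fitted alone, 1.21% passed.

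The most restricted striatal genes were low in every library. Adora2a, on chromosome 10 from 75316877 to 75334784 (mm10), had 1.87, 2.11 and 3.004 CPM in GFP replicates 1, 2 and 3 and 2.20, 1.94 and 1.93 CPM in the Kmt5b shRNA replicates. These values rest on 65 to 235 counts. GFP replicate 3 was the highest: its counting interval was 2.63 to 3.41 CPM (exact Poisson, 95%, counting error only), above the values of the other 5 libraries, which lay close together. The groups overlapped. The log2 fold change of Adora2a was -0.21 ± 0.25 (SE), with a 95% interval from -0.75 to 0.33 and an edgeR adjusted p of 0.779. With GFP replicate 3 left out it was 0.028 (adjusted p = 0.986).

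Syndig1l, on chromosome 12 from 84677277 to 84698831, was the lowest of the 7. It had 0.942, 0.260 and 0.767 CPM under GFP and 0.668, 0.904 and 0.984 CPM under Kmt5b shRNA. GFP replicate 2, the shallowest library, held 8 counts, with an interval of 0.112 to 0.513 CPM that ends below the values of the other 5. The log2 fold change of Syndig1l was 0.32 ± 0.41 (SE, edgeR adjusted p = 0.796), and 0.0021 without GFP replicate 2. Its interval, from -0.56 to 1.19, is the widest of the 7 genes, so these 6 libraries leave room for a doubling under Kmt5b shRNA but not for a halving.

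Of the other indirect pathway genes tested, Drd2, Gpr6 and Sp9 were as low as Adora2a, and Penk, Ptprm and Grik3 were higher. Drd2 had 1.05, 1.27 and 1.34 CPM under GFP and 0.668, 0.882 and 1.08 CPM under Kmt5b shRNA, a log2 fold change of -0.48 ± 0.31 (SE, edgeR adjusted p = 0.512). The highest Kmt5b shRNA library thus lay just above the lowest GFP library. Gpr6, an orphan receptor of indirect pathway neurons, lay between 0.628 and 1.58 CPM. Across the 6 libraries Adora2a, Drd2, Gpr6 and Syndig1l never exceeded 3.004 CPM. Penk, the enkephalin precursor, which cortical interneurons also make, was higher at 23.0 to 40.9 CPM, with the top value in GFP replicate 2. Ptprm, a receptor tyrosine phosphatase, had 59.4 to 63.3 CPM, and Grik3, a kainate receptor subunit, had 120.8 to 160.4 CPM.

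Transcription factors of striatal cells ranged widely. Meis2, Foxp1 and Bcl11b, which cortical neurons also make, had 118.8 to 153.9, 100.4 to 126.3 and 63.1 to 92.8 CPM, while Ebf1 had 4.86 to 6.61, Zic4 2.44 to 3.71 and Sp9 0.729 to 1.21 CPM, with a smallest edgeR adjusted p of 0.101, for Bcl11b. A further 4, Six3, Isl1, Lhx8 and Gbx2, were at or near 0 and were not tested. Six3 had 4 counts in GFP replicate 3 and 0 in the other 5 libraries. Isl1 had 2, 0 and 8 counts under GFP against 2, 2 and 0 under Kmt5b shRNA. Lhx8, a factor of cholinergic neurons, had 0 counts in all 6. Chat, the enzyme of acetylcholine synthesis, was tested and lay between 0.172 and 0.463 CPM. GFP replicate 3 is also the deepest library, and these counts are too few to rank libraries. No striatal sample was analysed here, so the levels cannot be turned into a share of striatal tissue.

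Rarb, on chromosome 14 from 16430839 to 16819156 on the minus strand, gave a low level too. It had 4.83, 3.58 and 5.13 CPM under GFP and 5.43, 4.48 and 4.39 CPM under Kmt5b shRNA. The groups overlapped, with GFP replicate 2 the lowest and Kmt5b shRNA replicate 1 the highest. The log2 fold change of Rarb was 0.07 ± 0.20 (SE, edgeR adjusted p = 0.922), with a 95% interval from -0.35 to 0.49. Leaving out GFP replicate 2 gave -0.056 and leaving out Kmt5b shRNA replicate 1 gave -0.030. The 3′ end of Rarb shares 1793 exonic bases with Top2b, a topoisomerase gene on the opposite strand with 5715 to 14907 counts per library. The libraries were stranded, but the strand setting of the counting is not given in the sources used here, so Rarb reads there cannot be told apart from Top2b reads.

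Rarb is known for a promoter through which retinoic acid raises its own receptor, and that promoter is shown because the receptor is read here as a tissue marker although its gene also answers to a hormone. RefSeq (GRCm38.p6) holds promoters, 250 bases before to 50 after a start, for 4 of the 7 genes. The Rarb promoter at chr14:16575427-16575726, minus strand, is given 5′ to 3′, with a direct repeat of the receptor half-site core in capitals: GTTCA, then 6 bases of any kind, then GTTCA.
Rarb promoter: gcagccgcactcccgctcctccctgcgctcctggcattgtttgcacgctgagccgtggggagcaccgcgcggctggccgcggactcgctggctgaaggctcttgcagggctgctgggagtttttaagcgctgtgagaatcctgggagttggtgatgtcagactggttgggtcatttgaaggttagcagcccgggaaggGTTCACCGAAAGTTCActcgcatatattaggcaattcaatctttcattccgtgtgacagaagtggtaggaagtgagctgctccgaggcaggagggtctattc
The match lies from 52 to 37 bases before the start. In Rarb a C follows each GTTCA, and the first such C is counted among the 6 bases between the cores. Searched on both strands, this motif occurs in 25 of 32851 promoters of the same length (0.0761%), and in 1 of the 4 marker genes found there. The motif was spelled as it stands in Rarb, so the match in Rarb was fixed in advance. Its share does not measure how common retinoic acid sites are. Within the retinoid pathway 1 of 18 tested genes rose and 0 fell, beside 2.77% higher and 5.69% lower over all genes. That gene was Aldh1a3, an enzyme that makes retinoic acid, at 6.55 ± 1.04 CPM under Kmt5b shRNA against 3.63 ± 0.967 CPM under GFP (SD, n = 3 each, edgeR adjusted p = 0.0212). In genes sharing no sequence the Aldh1a3 adjusted p was 0.0826. With 1 library left out Aldh1a3 passed in 2 of 6 fits, with an adjusted p of 0.0776 and 0.103 when GFP replicates 2 and 3 were dropped and of 0.116 and 0.0796 when replicates 1 and 2 of the Kmt5b shRNA group were. The receptor partner Rxrg, itself a striatal gene, had 10.96 ± 1.39 against 6.98 ± 2.49 CPM (adjusted p = 0.129).

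**Figure D1:**
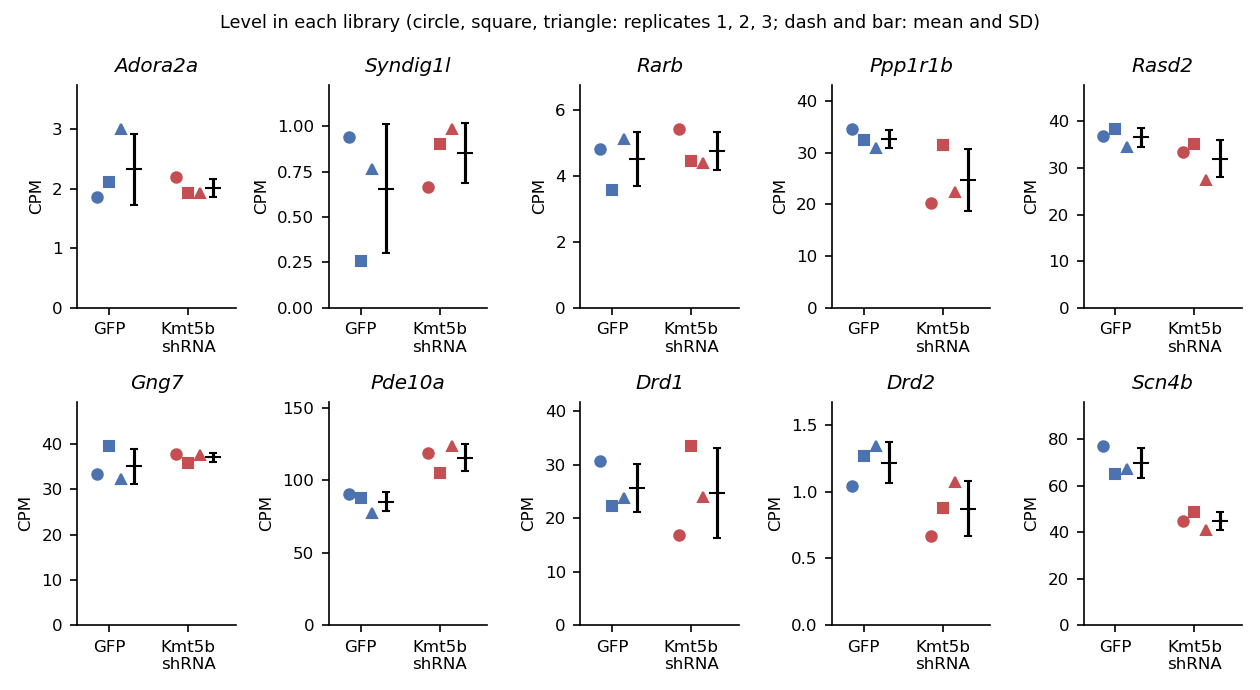
Level of the 7 striatal markers and of Drd1, Drd2 and Scn4b in CPM (vertical axes, each from 0) in the 3 GFP and 3 Kmt5b shRNA libraries; symbols mark replicate numbers, and the dash and bar give the mean and SD. Adora2a, Drd2 and Syndig1l stay at or below 3.004 CPM in all libraries, and the Pde10a and Scn4b values of the groups do not overlap, in opposite directions.

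Pde10a, on chromosome 17 from 8525372 to 8986648, was the member that rose. It had 90.8, 87.8 and 77.6 CPM under GFP and 118.7, 105.0 and 123.5 CPM under Kmt5b shRNA. Every Kmt5b shRNA library lay above every GFP library. The means were 85.4 ± 6.91 and 115.7 ± 9.57 CPM (SD, n = 3 each), for a log2 fold change of 0.44 ± 0.10 (SE) with a 95% interval from 0.22 to 0.66 and an edgeR adjusted p of 0.0104. This is a rise of 35.6%. An exact permutation test, two-sided, gave p = 0.1, the smallest that 3 against 3 libraries allow. Leaving out GFP replicate 3 gave 0.37 (adjusted p = 0.0685), leaving out Kmt5b shRNA replicate 1 gave 0.42 (adjusted p = 0.0684), and the genes sharing no sequence gave 0.43 (adjusted p = 0.0515).

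Of the 7 genes, 1 rose and 0 fell at an adjusted p under 0.05, beside 8.46% of all genes called in either direction. Only Pde10a had groups that did not overlap, beside 22.5% of all genes. At an unadjusted edgeR p under 0.05 there were 2, Pde10a and Ppp1r1b, and DESeq2 and limma-voom each called 1. In the genes sharing no sequence, which keep 6 of the 7 and leave out Rarb, 0 were called, with 2 at an unadjusted p under 0.05. The log2 fold change was above 0 for 4 of 7 genes, with a median of 0.07 against -0.02 over all genes tested. Single genes ranged from -0.40 to 0.44, so the list did not move one way.

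Ppp1r1b, on chromosome 11 from 98348404 to 98357796, lay opposite to Pde10a. It had 34.5, 32.5 and 30.9 CPM under GFP and 20.3, 31.4 and 22.3 CPM under Kmt5b shRNA. The GFP values were close together, while Kmt5b shRNA replicate 2 lay within the GFP range and the other two lay well below it. The means were 32.6 ± 1.81 and 24.7 ± 5.92 CPM (SD, n = 3 each), for a log2 fold change of -0.40 ± 0.14 (SE, 95% interval from -0.71 to -0.10). The edgeR adjusted p was 0.118. Ppp1r1b passed in 2 of 12 alternatives. Without Kmt5b shRNA replicate 2 the log2 fold change was -0.61 (adjusted p = 0.00212), and with no filter on low counts the adjusted p was 0.00694. Of the 6 fits with 1 library left out, only that without Kmt5b shRNA replicate 2 passed. Without Kmt5b shRNA replicate 1 the log2 fold change was -0.28 (edgeR adjusted p = 0.453). A noncoding gene on the opposite strand, 1700003D09Rik, shares 460 exonic bases with Ppp1r1b and had 3 to 33 counts per library.

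The spread of Ppp1r1b within the Kmt5b shRNA libraries was shared by Drd1 and Foxp2, though not by every gene of deep cortical layers. Drd1 had 16.8, 33.4 and 23.9 CPM in Kmt5b shRNA replicates 1, 2 and 3, against 30.6, 22.2 and 23.8 CPM in the GFP libraries. Foxp2, a transcription factor listed here with cortical excitatory genes, was singled out after its values were seen. It had 16.2, 31.8 and 23.4 CPM in the Kmt5b shRNA libraries. In the GFP libraries it had 30.4, 22.5 and 25.8 CPM. For all 3 genes replicate 2 was the highest and replicate 1 the lowest of the Kmt5b shRNA libraries, and GFP replicate 1 the highest GFP library. Over the 6 libraries (log2 CPM, which share depth and scaling, a description with no test) Foxp2 had a Pearson r of 0.78 with Ppp1r1b. Of other deep layer genes Nr4a2 had 0.68, but Tbr1, Fezf2 and Etv1 had -0.095, -0.49 and -0.59. All 10 oligodendrocyte genes had an r with Ppp1r1b above 0, from 0.56 (Mag) to 0.92 (Aspa). Other striatal genes of both pathways had an r with Ppp1r1b from -0.91 (Arpp21) to 0.88 (Ano3). Scn4b had 0.83 and Drd1 0.71, while Pdyn had -0.85. Drd1 had a log2 fold change of -0.05 ± 0.25 (SE, edgeR adjusted p = 0.957) and Foxp2 of -0.14 ± 0.24 (adjusted p = 0.852). Without GFP replicate 1 or Kmt5b shRNA replicate 1 the Drd1 value was 0.10 or 0.16. The part of layer 6 or striatal neurons in the Ppp1r1b, Drd1 and Foxp2 values was not tested. In bulk RNA fewer cells of a type and less RNA per cell cannot be told apart.

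Rasd2, on chromosome 8 from 75213944 to 75224113, had 36.9, 38.3 and 34.4 CPM under GFP and 33.4, 35.1 and 27.5 CPM under Kmt5b shRNA. Kmt5b shRNA replicate 3 was the lowest, and the groups overlapped. The log2 fold change of Rasd2 was -0.19 ± 0.11 (SE, 95% interval from -0.43 to 0.04, edgeR adjusted p = 0.428). Gng7, on chromosome 10 from 80948624 to 81014945, was the steadiest of the 7, with 33.4, 39.5 and 32.4 CPM under GFP and 37.8, 35.9 and 37.6 CPM under Kmt5b shRNA. Its highest library was 1.22 times its lowest, against 1.39 to 3.78 times for the other 6 genes. Gng7 had a log2 fold change of 0.08 ± 0.10 (SE, 95% interval from -0.14 to 0.30, edgeR adjusted p = 0.791), an interval that spans -9.20% to 23.4%.

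**Figure D2:**
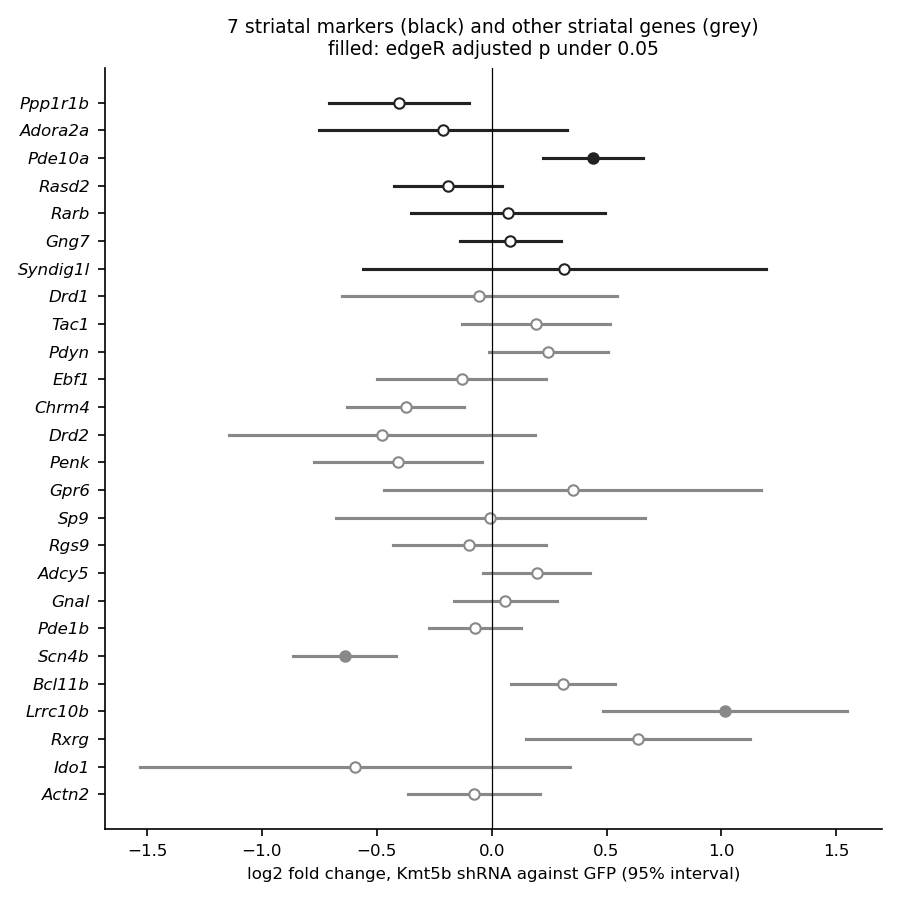
Log2 fold change of Kmt5b shRNA against GFP (horizontal axis) with its 95% interval for the 7 markers (black) and 19 other striatal genes (grey); filled points passed an edgeR adjusted p under 0.05. Pde10a (0.44) and Lrrc10b (1.01) lie to the right and Scn4b (-0.64) to the left, and the other genes drawn did not pass.

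Scaled by length, the 7 genes fell into a higher and a lower set. In CPM per kilobase of exon, with SD over the 6 libraries, Rasd2 had 10.8 ± 1.18, Ppp1r1b 9.79 ± 2.0, Gng7 9.54 ± 0.726 and Pde10a 7.82 ± 1.42. Library ranges of neighbours in this order overlapped, so these 4 were not told apart. Rarb followed at 0.881 ± 0.123 and Adora2a at 0.710 ± 0.139, again with overlapping ranges, and Syndig1l was lowest at 0.245 ± 0.0874. The gap between Pde10a and Rarb was free of overlap, as was that between Adora2a and Syndig1l. Rasd2 stood above 80.4% of tested genes on this scale and Pde10a above 74.6%, while Rarb stood above 34.8%, Adora2a above 30.7% and Syndig1l above 12.3%. For comparison, Drd1 had 6.93 and Drd2 0.411 CPM per kilobase, 2 receptors that are both abundant in striatum, and Slc17a7 had 179.4.

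**Figure D3:**
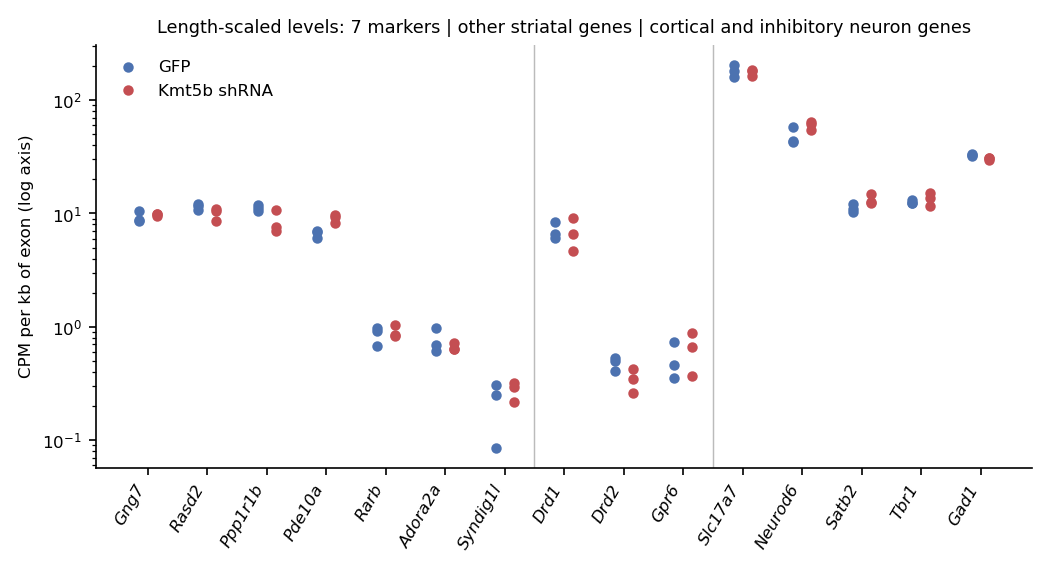
Length-scaled level (CPM per kilobase of exon, log axis) of the 7 markers, 3 other striatal genes and 5 cortical or inhibitory neuron genes, 1 point per library, GFP in blue and Kmt5b shRNA in red. Gng7, Rasd2, Ppp1r1b and Pde10a lie near Drd1, while Rarb, Adora2a and Syndig1l lie near Drd2 and Gpr6 at 1.03 or less in all libraries.

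Other striatal genes lay on both sides of 0 too. Of 37 genes of both pathways, 34 were tested, 1 rose and 1 fell, beside 2.77% higher and 5.69% lower over all genes, with 16 above 0 and a median log2 fold change of -0.01. Scn4b, a sodium channel beta subunit abundant in spiny projection neurons, fell. It had 77.0, 65.2 and 67.2 CPM under GFP and 44.9, 48.6 and 40.9 CPM under Kmt5b shRNA, a log2 fold change of -0.64 ± 0.10 (SE, edgeR adjusted p = 0.000509), and it passed in the genes sharing no sequence (adjusted p = 0.00553). Lrrc10b, a leucine-rich repeat gene, rose from 2.53 ± 0.851 to 5.18 ± 0.795 CPM (SD, n = 3 each, edgeR adjusted p = 0.0152). The Lrrc10b adjusted p was 0.0840 in the genes sharing no sequence. It was 0.0521 when GFP replicate 2 was left out, and 0.0802 and 0.0511 when replicate 1 and replicate 3 of the Kmt5b shRNA group were. The numbers called with 1 library left out ran from 1 to 5: 5 without GFP replicate 1 and 1 when GFP replicate 2 or replicate 1 or 3 of the Kmt5b shRNA group was left out.

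Over all genes edgeR called 8.46% in either direction. Among 7 tested direct pathway genes 0 passed by edgeR, DESeq2 or limma-voom, with 1 at an unadjusted edgeR p under 0.05. That gene was Chrm4, the muscarinic receptor of direct pathway neurons, at 18.4 ± 0.599 CPM under Kmt5b shRNA against 23.8 ± 3.44 CPM under GFP (SD, n = 3 each, edgeR adjusted p = 0.0737). Of 6 tested indirect pathway genes 0 passed by the same 3 tools, with Penk at an unadjusted p under 0.05 (log2 fold change -0.41 ± 0.17, edgeR adjusted p = 0.212). Of 4 tested genes of cholinergic interneurons 0 passed by any of the 3, and 0 at an unadjusted p under 0.05.

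In the dopamine and cAMP pathway on which Ppp1r1b, Pde10a and Gng7 act, 1 of 34 genes rose and 0 fell. Over all genes 2.77% were higher and 5.69% lower. The gene that rose was Ppp1cc, a catalytic subunit of protein phosphatase 1, at 65.5 ± 7.65 against 12.99 ± 0.612 CPM under GFP (SD, n = 3 each, edgeR adjusted p = 4.74e-10). Ppp1cc is not among the genes sharing no sequence, so its own value is uncertain. The olfactory type G protein subunit Gnal, the partner of Gng7, had a log2 fold change of 0.06 ± 0.10 (SE, adjusted p = 0.864). Adcy5, the main striatal adenylyl cyclase, had 0.20 ± 0.11 (adjusted p = 0.410), and Rgs9, a regulator of G protein signalling, -0.10 ± 0.16 (adjusted p = 0.846).

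Summed over the 7 genes, the level was 203.3, 204.1 and 184.2 CPM under GFP and 218.4, 214.8 and 218.2 CPM under Kmt5b shRNA. These ranges did not overlap, but Pde10a alone made up 42.1% to 56.6% of the sum. Without Pde10a the sum of the other 6 was 112.5, 116.3 and 106.7 CPM under GFP and 99.8, 109.8 and 94.7 CPM under Kmt5b shRNA, with overlap and the lower values in the Kmt5b shRNA group. No library led for most genes: GFP replicate 2 and Kmt5b shRNA replicate 3 were each the highest for 2 of the 7, and the other libraries for 1 or 0.

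Markers of other cells were read beside these values. Their counts of called genes stand beside 2.77% higher and 5.69% lower over all genes by edgeR. Summed levels of 16 cortical excitatory genes ranged from 2168 to 2436 CPM in the GFP and from 2235 to 2372 CPM in the Kmt5b shRNA libraries. Those of 8 thalamic genes ranged from 182.6 to 210.7 and from 180.6 to 198.1 CPM, and those of 6 septal genes from 113.8 to 152.6 and from 129.3 to 136.3 CPM. Oligodendrocyte genes varied most: 10 genes summed to 2822 to 4310 CPM in the GFP libraries and to 1550, 2814 and 3268 CPM in the Kmt5b shRNA libraries, lowest in replicate 1, where Ppp1r1b was lowest too. In Kmt5b shRNA replicate 3, where Ppp1r1b was nearly as low, the oligodendrocyte sum lay within the GFP range. All 10 oligodendrocyte genes had a log2 fold change below 0, with a median of -0.43, close to that of Ppp1r1b (-0.40). Astrocyte genes summed to 1452 to 1608 CPM in the GFP and 1401 to 1445 CPM in the Kmt5b shRNA libraries, so these ranges did not overlap, and 3 of 8 fell (Aqp4, Gja1 and Slc4a4). Of all single genes, 22.5% had ranges without overlap. Another 3 of the 8 had a log2 fold change above 0, so the list did not move one way. In the genes sharing no sequence these were Gfap (0.37), Sox9 (0.25) and Fgfr3 (0.13), with edgeR adjusted p = 0.569, 0.481 and 0.510. Aqp4, the astrocyte water channel, passed in all 6 fits with 1 library left out, but Gja1 did not without replicate 3 of either group (adjusted p = 0.0533 and 0.0614 for GFP and Kmt5b shRNA). Slc4a4 did not without GFP replicate 3 (0.105) or without replicates 1 and 3 of the Kmt5b shRNA group (0.0558 and 0.147), nor in the genes sharing no sequence (0.0627). Of 8 inhibitory neuron genes, which cortex and striatum share, 2 fell, Pvalb (-0.58 ± 0.12, edgeR adjusted p = 0.00329) and the neuropeptide Npy (-0.46 ± 0.12, adjusted p = 0.0317), both on the log2 scale. In the same list 3 genes had a log2 fold change above 0. At an unadjusted edgeR p under 0.05 there were 4, Pvalb, Npy, Vip and Lhx6. Vip (0.27) and Lhx6 (0.25) lay above 0 in the genes sharing no sequence (edgeR adjusted p = 0.201 and 0.318). Npy passed in 2 of 6 fits with 1 library left out, with an adjusted p of 0.148 when GFP replicate 2 was dropped and of 0.127, 0.0708 and 0.0978 when replicates 1, 2 and 3 of the Kmt5b shRNA group were. It did not pass by limma-voom (0.0618) or in the genes sharing no sequence (0.114). Of the cortical excitatory genes 1 rose, the layer 5 factor Etv1 (0.52 ± 0.12, adjusted p = 0.0117, and 0.0659 without GFP replicate 3). Olfactory bulb and neuroblast genes summed to 71.9 to 83.2 CPM under GFP and 87.8 to 94.0 CPM under Kmt5b shRNA, with 0 of 8 called by edgeR or limma-voom, 1 by DESeq2 and 2, Dcx and Sox11, at an unadjusted edgeR p under 0.05. Choroid plexus and ependymal genes summed to at most 11.6 CPM, with Ttr at 0 to 1.18 CPM. Of the thalamic, septal, choroid and ependymal, and oligodendrocyte genes 0 were called by edgeR, with 0, 0, 1 (Ttr) and 2 (Mog and Aspa) at an unadjusted p under 0.05, while DESeq2 called 0, 0, 1 and 1 and limma-voom 0, 0, 0 and 1. None of the lists was at 0 throughout, and the part of these cells in the marker values was not tested.

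**Figure D4:**
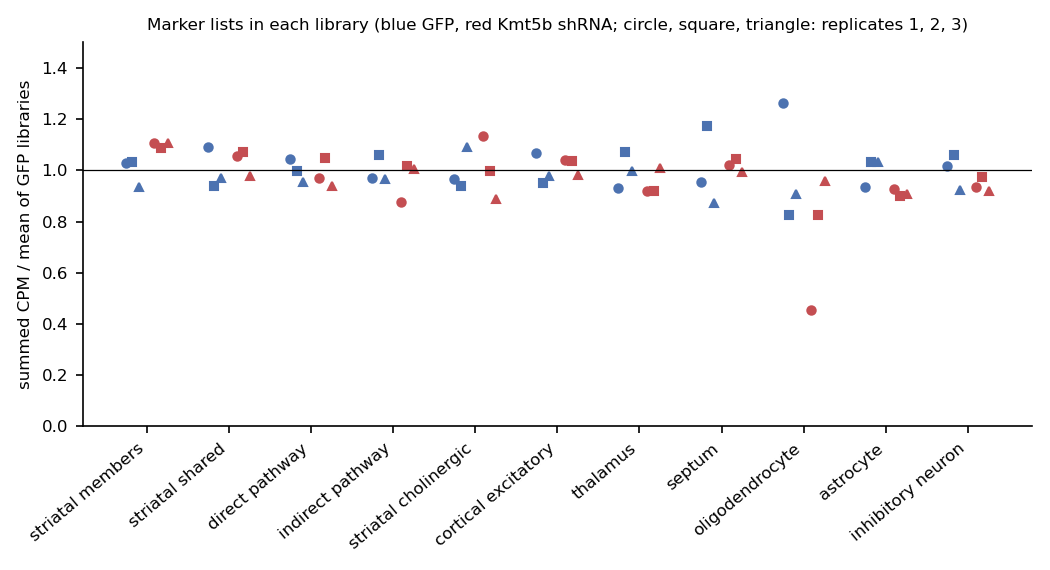
Summed CPM of each marker list divided by the mean of the 3 GFP libraries (vertical axis), 1 point per library, GFP in blue and Kmt5b shRNA in red. Striatal lists stay near 1 in all libraries. The striatal shared sum (3621 to 4206 CPM) is weighted by abundant genes such as Itpr1 (1359 to 1645 CPM), so it says little about the low striatal genes. The largest departure drawn is the oligodendrocyte sum of Kmt5b shRNA replicate 1 (1550 CPM).

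The 7 genes did not follow one another across libraries. Of their 21 pairs, 8 had a Pearson r above 0 over the 6 libraries (log2 CPM, a description with no test), with a median of -0.19. Ppp1r1b and Rasd2 were most alike (r = 0.74) and Ppp1r1b and Pde10a least (r = -0.80). The genes whose levels ran closest to the mean log2 CPM of the 7, among 11722 candidates over 6 libraries, were Slc39a11 (r = 0.99), Dgcr2, Fads2, Eri2, Ica1, Armc7, Gga2 and Cwh43. All 8 had their lowest value in GFP replicate 2, as Syndig1l and Rarb did. Syndig1l varied most of the 7 (highest library 3.78 times the lowest) and had 8 counts there, so it weighs most in this mean. Gng7 and Rasd2 were at their highest in GFP replicate 2, at 39.5 and 38.3 CPM. Slc39a11, a zinc transporter, had 15.9, 10.8 and 15.9 CPM under GFP and 14.7, 16.8 and 14.8 CPM under Kmt5b shRNA.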

How the data were processed

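The deposited files give raw read counts per gene symbol, 1 file per library. Per the labels' protocols, ribosome-depleted stranded total RNA was sequenced, with Cutadapt for trimming and TopHat2 for alignment to RefSeq mRNAs. The submitters' processing notes name STAR, featureCounts, DESeq2 and mm10. Groups and replicate numbers came from the titles.

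The test was that of edgeR 4.0.16 (R 4.3.3; filterByExpr, TMM, robust quasi-likelihood fit, Benjamini-Hochberg adjusted p under 0.05 over all 24419 genes). CPM used TMM library sizes. Coordinates and exon lengths came from GENCODE M21 (mm10). Genes sharing no sequence had no BLAST+ 2.17.0 match of 90% identity over 200 nucleotides or 50% of their length.

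The members and lists were chosen with earlier results of these data known. Named genes were the 7, Drd1, Drd2, per list up to 2 called genes a direction (otherwise the smallest p), and the 8 genes most like the mean of the 7 with average log2 CPM of at least 2. Other genes named were chosen after their values were seen. Alternatives were DESeq2 1.42.0, limma-voom (limma 3.58.1), other scaling, no filter, a replicate block and each library left out. On simulated counts over 24419 genes for Kmt5b shRNA against GFP, edgeR recovered 90% of 200 genes changed by 1 on the log2 scale, with 3.74% false calls. The changed genes were drawn from those with an average log2 CPM above 1, and their spread followed the trend over all genes. The recovery rate therefore does not carry over to lower genes such as Syndig1l and Drd2, or to smaller changes. Replicates differed by far more than sampling noise (chi-square per gene 17.9 to 42.7).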

Additional observations from a re-analysis of the deposited data

How the results depend on the processing

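Of all genes, 2066 were called, and 145 (96 higher, 49 lower) in the genes sharing no sequence, where fewer genes were tested. Leaving out 1 library gave 1696 to 2332. Of the 7 striatal genes, 2 were called with no filter on low counts and 0 in the genes sharing no sequence, and 0 to 2 with 1 library left out. Of the wider striatal genes, 4 were called by DESeq2, 5 with no filter and 1 in the genes sharing no sequence, and 1 to 5 with 1 library left out. Pde10a was 0.43 in the genes sharing no sequence (adjusted p = 0.0515) and 0.37 to 0.50 with 1 library left out, passing in 9 of 12 alternatives. Leaving out 1 library moved the log2 fold change of Adora2a from -0.35 to 0.028 (reversed without GFP replicate 3), that of Rarb from -0.056 to 0.17 (reversed at -0.056 without GFP replicate 2 and at -0.030 without Kmt5b shRNA replicate 1) and that of Drd1 from -0.33 to 0.16 (reversed at 0.10 without GFP replicate 1 and at 0.16 without Kmt5b shRNA replicate 1). On raw library totals the sum of the 7 in the Kmt5b shRNA libraries was 213.8 CPM in place of 217.1. The cause of these shifts was not tested.

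With the replicate number as a block, 2211 genes were called, 1 of the 7 (Pde10a, adjusted p = 0.0182) and 3 of the wider genes, so no call among the 7 changed. Same-numbered libraries did not deviate together in 2 of 3 pairs (correlations of -0.0344 and -0.0102 for replicates 1 and 2, and 0.218 for replicate 3), and 2 of 6 libraries correlated best with their own number. Counts of 8 to 63 limit Syndig1l most.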

Other observations

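Genes that ran closest to single markers across the 6 libraries, a choice made after the values were seen, differed between Ppp1r1b and Pde10a. Those most like Ppp1r1b were led by Kdm5a, a histone demethylase, at 112.1, 109.9 and 106.6 CPM in the GFP and 96.0, 108.3 and 97.8 CPM in the Kmt5b shRNA libraries (log2 fold change -0.12, edgeR adjusted p = 0.600). Mctp1, a calcium-binding membrane protein, was also among the 8 closest, at 94.6, 85.2 and 79.3 CPM in the GFP and 51.2, 84.0 and 48.6 CPM in the Kmt5b shRNA libraries (-0.50, adjusted p = 0.235). In both, Kmt5b shRNA replicate 2 lay apart from replicates 1 and 3, as it did for Ppp1r1b.

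Those most like Pde10a were led by Hspb1, a small heat shock protein, at 2.72, 2.02 and 1.24 CPM in the GFP and 8.54, 4.76 and 8.07 CPM in the Kmt5b shRNA libraries (log2 fold change 1.84, edgeR adjusted p = 0.000803). Larp1, an RNA-binding regulator of translation, was at 126.1, 126.5 and 115.3 CPM in the GFP and 160.9, 151.6 and 171.8 CPM in the Kmt5b shRNA libraries (0.40, adjusted p = 0.0139). These genes were picked for their likeness to a marker that differs between the groups, so their own differences are a description.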
